A study of Mus musculus with 12 samples.

Results

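Interferon-stimulated genes are the antiviral genes that a cell switches on through the type I interferon receptor. A set of 40 was followed here in cultured CT26 cells with and without Mll3, chosen by name as antiviral effectors and the factors that regulate them. Earlier results of these data were known when the set was chosen. Each of the 40 matched 1 row of the count table, out of 17718 rows in all, and all 40 passed the filter on low counts. CT26 cells grow from a colon tumour of the BALB/c mouse strain, and the gene Mll3 (Kmt2c) encodes a histone methyltransferase that marks enhancers. The comparison is between 3 RNA-seq libraries of Mll3 wild-type cells and 3 libraries of Mll3 knock-out cells. The labels give the genotype as WT or Mll3KO, no treatment other than the knock-out, and the same batch date for all 6 libraries. They name no added interferon, so the values are levels in growing cells. The knock-out columns are headed sg1, sg2 and sg3. The labels do not say how the knock-out was made, whether it is 1 clone or a pool, or whether the libraries of a genotype came from separate cultures. The p-values thus rest on library-to-library spread alone, and that spread may be technical.

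Type I interferon binds a receptor of the chains IFNAR1 and IFNAR2, which activates the kinases JAK1 and TYK2. These phosphorylate STAT2, which acts with IRF9 in a complex that binds the interferon-stimulated response element, a short sequence in the promoters of many of these genes. IRF7 and nucleic acid sensors such as RIG-I and MDA5 raise interferon production and are themselves interferon-stimulated, and SOCS1 and USP18 damp the receptor. Many cells hold a low level of this program without added interferon.

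The libraries held 9559658 to 13406013 counts. Levels are given as CPM, the count of a gene scaled to library size by the TMM method. Kmt2c itself had 24.9, 26.2 and 25.0 CPM in wild-type cells against 16.0, 11.2 and 14.8 CPM in those labelled knock-out, so its RNA was lower but still present (log2 fold change -0.87, SE 0.129, edgeR adjusted p = 4.33e-08). Of the 15 immune markers, 8 had no row in the table, among them Cd3e, Ms4a1, Ncr1, Adgre1 and Siglech, a marker of the plasmacytoid dendritic cells that make interferon. Ptprc, the pan-leukocyte marker, had 1 count in each wild-type library and 2 to 4 in knock-out cells libraries. The summed level of the immune list was 19.4 to 23.0 CPM in wild-type and 20.9 to 25.6 CPM in knock-out libraries, but its members changed in opposite directions. Csf1r, a macrophage growth factor receptor, fell from 15.2 ± 1.02 to 6.72 ± 1.55 CPM. Lyz2, a myeloid lysozyme, rose from 0.553 ± 0.307 to 8.80 ± 0.535 CPM (edgeR adjusted p = 1.37e-15), and Itgax, a dendritic cell integrin, had 0 counts in each wild-type library and 18, 22 and 14 counts in knock-out cells. Of 10 colon epithelial markers, Epcam, Cdh1, Krt19, Cdx1, Cdx2 and Muc2 had no row. The summed level of that list was 53.0 to 55.5 CPM in wild-type and 161 to 174 CPM in knock-out cells. Its 3 tested members were all higher. The fibroblast and endothelial list summed to 1009 to 1027 and 1323 to 1361 CPM, with 5 of 6 tested members higher. Among all genes tested, 33.1% were higher at an edgeR adjusted p under 0.05. The part of these differences in those of the interferon-stimulated genes was not tested.

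The interferon-stimulated genes were mostly lower in the knock-out. Of the 40, 28 fell and 5 rose (edgeR quasi-likelihood test, adjusted p under 0.05), and 7 were not called. Those shares, 70% lower and 12.5% higher, stand beside 33.2% lower and 33.1% higher among all 13013 genes tested, of which 66.2% were called in either direction. The libraries of the 2 genotypes did not overlap for 29 members that were lower and for 5 that were higher, where 34.3% and 34.4% of all genes tested did so (68.7% together). A fall of at least 2-fold was found in 12 of the 40 (30%), against 4.99% of all genes tested. A rise of that size was found in 1 of the 40, against 10.1% of all genes tested. The median log2 fold change of the members was -0.65, and it was 0.02 over all genes tested. Summed over the 40 members, the libraries held 4355, 4281 and 4122 CPM in wild-type and 2307, 2341 and 2380 CPM in knock-out cells. In bulk RNA, a smaller number of cells using these genes cannot be told apart from less RNA per cell.

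**Figure D1:**
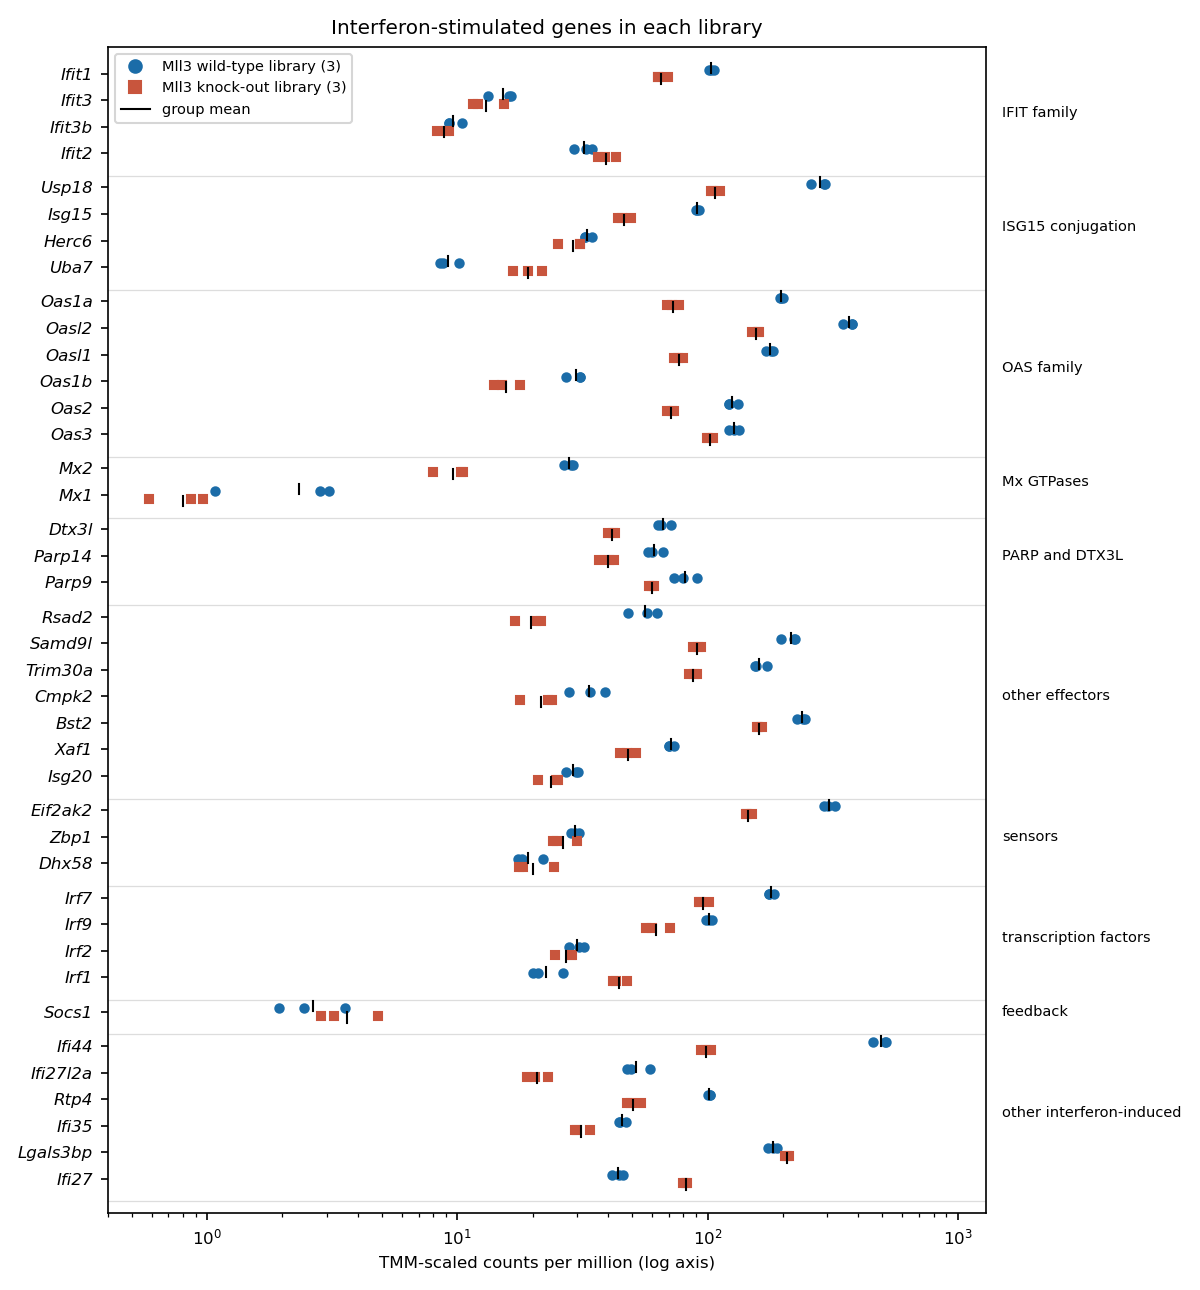
TMM-scaled CPM (log axis) of the 40 interferon-stimulated genes in each of 3 wild-type (circles) and 3 knock-out (squares) libraries, grouped by role, with group means as black ticks. The members of the OAS family lie apart by genotype with the knock-out lower, whereas the points of Ifit3, Ifit3b, Dhx58, Zbp1, Irf2 and Socs1 overlap, and Uba7, Irf1, Ifi27, Ifit2 and Lgals3bp lie higher in the knock-out.

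The genes of the receptor chains and their kinases were not called lower in the main test. Ifnar1 stood at 44.0 ± 0.790 CPM in wild-type and 47.1 ± 3.32 CPM in knock-out cells (SD, n = 3; log2 fold change 0.10, edgeR adjusted p = 0.270). Ifnar2 stood at 12.4 ± 1.04 and 9.98 ± 1.20 CPM, lower in the knock-out with no overlap between the groups, but was not called (-0.31, edgeR adjusted p = 0.0849). It passed the threshold without the knock-out library headed sg1 (-0.42, adjusted p = 0.0429). Jak1 was not called (-0.07, edgeR adjusted p = 0.262), and Tyk2 rose (0.60, SE 0.138). Ifnar1 was called higher with scaling by upper quartile (0.26) or by library size alone (0.22). Stat2, the transcription factor below the receptor that partners IRF9, fell from 88.8 ± 7.43 to 56.0 ± 1.49 CPM (-0.67, SE 0.0677, edgeR adjusted p = 7.67e-13). Of the 13 tested ligand, receptor and signalling genes, 4 fell and 3 rose, with a median of -0.07. Those counts stand beside 33.2% lower and 33.1% higher among all genes tested. The groups did not overlap for 6 that were lower and 3 that were higher, where 34.3% and 34.4% of all genes tested did so. The phosphatase gene Ptpn2, a brake on JAK and STAT signalling, fell by 1.04 on the log2 scale (chromosome 18, whose tested genes had a median of -0.31). Ptpn6, which encodes the phosphatase SHP-1, rose from 5.28 ± 1.48 to 25.9 ± 1.89 CPM. Irf5 fell (-0.61) and the low-level gene Irf8 rose (1.23, SE 0.420), a call that was lost without the library headed sg1 (0.99, edgeR adjusted p = 0.0792). Of the interferon genes themselves, Ifnb1 had a row, with 4, 3 and 2 counts in wild-type and 9, 2 and 2 in knock-out cells, too few to test. It was singled out after its counts were seen.

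In the list of nucleic acid sensors and the proteins that act with them, 7 of 11 tested genes fell and 4 rose (median -0.44), beside 33.2% lower and 33.1% higher among all genes tested. The RNA sensors Ifih1 (MDA5), Ddx58 (RIG-I) and Tlr3 fell by 1.26, 1.17 and 0.95, the DNA sensor Cgas fell by 0.66, and Adar, an RNA-editing enzyme that marks the cell's own double-stranded RNA, fell by 0.67. The 4 that rose were the adaptors Mavs (0.47) and Tmem173 (STING, 0.53), the kinase gene Ikbke (0.71) and the nucleotide hydrolase Samhd1 (0.45). Of the 3 sensor genes among the 40 members, 1 fell and 2 were not called. Eif2ak2, which encodes the kinase PKR that stops translation on sensing double-stranded RNA, stood at 322, 302 and 292 CPM in wild-type and at 144, 143 and 150 CPM in knock-out cells. Every knock-out library lay below every wild-type library (-1.07, SE 0.0448, edgeR adjusted p = 1.09e-28). Annotated genes that overlap Eif2ak2, Gm6548 and Gm26637, were also lower (-1.27 and -0.61), and reads in shared stretches cannot be told apart without the counting's strand setting. Dhx58 (LGP2), a regulator of RIG-I and MDA5, stood at 17.4, 18.2 and 22.0 CPM in wild-type and 24.3, 17.6 and 18.3 CPM in knock-out cells, with overlapping groups (0.06, SE 0.131, edgeR adjusted p = 0.678). Zbp1, a sensor of Z-form nucleic acid that triggers necroptosis, stood at 29.5 ± 1.18 and 26.4 ± 3.16 CPM with overlapping groups (-0.16, edgeR adjusted p = 0.167). Without the library headed sg1, the highest of the knock-out values, it passed the threshold (-0.27, adjusted p = 0.0382).

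**Figure D2:**
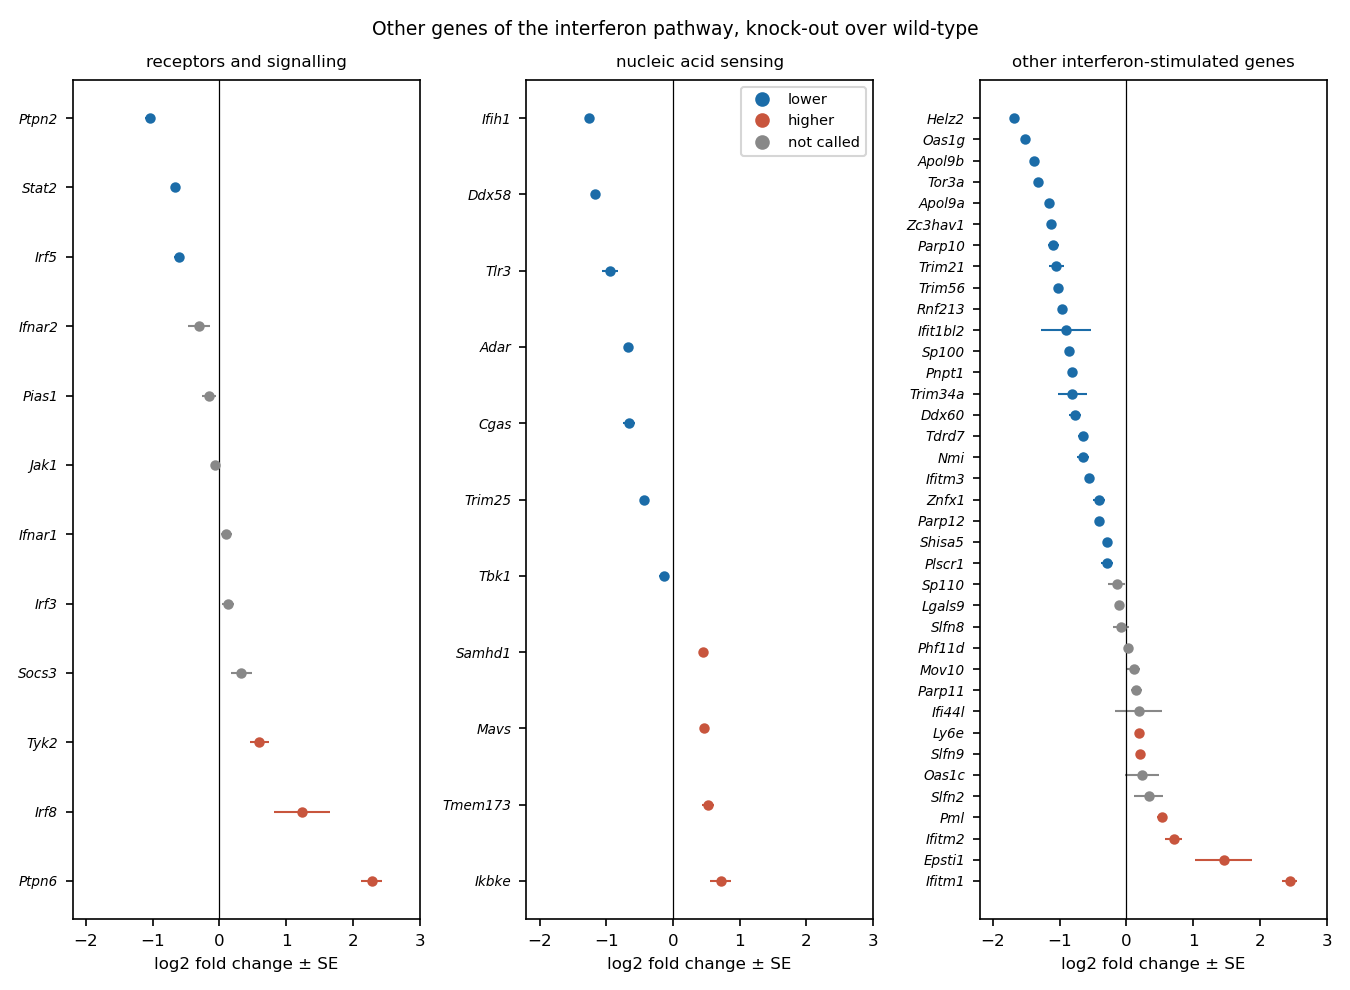
Log2 fold change (knock-out over wild-type, error bars SE, 3 libraries per genotype) of 60 of the 62 tested genes of the other pathway lists, coloured by the edgeR call. In the panel of receptors and signalling, 3 of the genes drawn are lower and 3 higher. The panels of sensors and of other interferon-stimulated genes hold 7 and 22 lower and 4 and 6 higher genes. Among all genes tested, 33.2% were lower and 33.1% higher.

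The transcription factors of the set parted. Irf7, the factor that amplifies interferon production, stood at 177, 175 and 184 CPM in wild-type and 93.5, 92.5 and 101 CPM in knock-out cells (-0.90, SE 0.0514, edgeR adjusted p = 1.36e-22). Irf9, the DNA-binding part of the STAT complex, stood at 98.3, 102 and 104 CPM and at 56.7, 59.9 and 70.8 CPM (-0.70, SE 0.0664, edgeR adjusted p = 8.90e-14). Both fell with no overlap between the genotypes, and the spread of Irf9 in knock-out cells (SD 7.41 CPM) came mainly from the library headed sg3. Irf9 lies on chromosome 14, whose tested genes had a median of 0.35, and its fall was 1.04 with chromosome medians removed. Irf1, an activator that interferon gamma induces strongly, went the other way: 26.5, 20.1 and 21.0 CPM in wild-type and 43.1, 41.8 and 47.5 CPM in knock-out cells, a 1.94-fold rise (edgeR adjusted p = 2.26e-12). Irf2, which competes with IRF1 at its sites, stood at 27.9 to 32.1 CPM and 24.5 to 28.8 CPM, and the groups overlapped (-0.15, edgeR adjusted p = 0.195). With upper-quartile scaling its value was 0.0077, and with the median of chromosome 8 (-0.35) removed it was 0.20, uncalled in both.

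Of the feedback inhibitors, Usp18 fell and Socs1 was not called. Socs1, which blocks JAK activity, was near the lower end of detection at 19 to 33 counts per wild-type and 29 to 50 per knock-out library. Its levels of 1.94 to 3.56 CPM and 2.84 to 4.80 CPM overlapped (0.46, SE 0.315, edgeR adjusted p = 0.198). Usp18, the protease that removes ISG15 from proteins and blocks signalling at IFNAR2, stood at 294, 292 and 260 CPM in wild-type and 105, 103 and 112 CPM in knock-out cells, a 2.64-fold fall (edgeR adjusted p = 2.05e-32). Gm44148, a predicted gene annotated inside Usp18, had -1.36.

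ISG15 is a ubiquitin-like protein that UBA7 activates, HERC6 ligates to targets in the mouse, and USP18 removes. The genes of this cycle did not move together: 2 fell, 1 rose and 1 was not called. Isg15 stood at 92.5, 89.6 and 91.0 CPM in wild-type and 45.5, 43.7 and 49.4 CPM in knock-out cells, a 1.97-fold fall (-0.98, SE 0.0683, edgeR adjusted p = 5.86e-19). Uba7 stood at 8.72, 10.2 and 8.52 CPM in wild-type and 16.7, 19.1 and 21.7 CPM in knock-out cells, a 2.10-fold rise (edgeR adjusted p = 9.15e-09). Uba7 was the member with the highest log2 fold change of the 40 (1.07, SE 0.149). Herc6 stood at 32.2 to 34.5 CPM and at 25.3 to 31.0 CPM; the groups just failed to overlap, but the difference was not called (-0.18, SE 0.0991, edgeR adjusted p = 0.0958). Per library, the CPM ratio of Isg15 to Uba7 was 10.6, 8.79 and 10.7 in wild-type and 2.72, 2.29 and 2.27 in knock-out cells. CPM is not scaled by gene length, so only the change of such a ratio can be read, not its size.

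The IFIT proteins bind viral RNA and stop its translation, and their genes lie side by side on chromosome 19 between 34550550 and 34650009 (GRCm38.p6). Neighbours in this cluster had different values. Ifit1 stood at 106, 101 and 103 CPM in wild-type and at 63.2, 63.1 and 69.3 CPM in knock-out cells (-0.66, SE 0.0615, edgeR adjusted p = 3.14e-14). Ifit2 stood at 29.3, 34.4 and 32.6 CPM and at 36.4, 43.0 and 38.9 CPM, so that it was higher in each knock-out library than in any wild-type one (0.31, SE 0.0930, edgeR adjusted p = 0.00344). The call of Ifit2 was lost without the library headed sg2, its highest (0.22, edgeR adjusted p = 0.0624). The 12 tested genes within 2 Mb of Ifit2 that are outside the interferon lists had a median of 0.30. Ifit3 stood at 13.3 to 16.3 CPM and 11.5 to 15.3 CPM (-0.23, edgeR adjusted p = 0.165), and its close copy Ifit3b at 9.27 to 10.4 CPM and 8.26 to 9.30 CPM (-0.12, edgeR adjusted p = 0.548). Without the library headed sg2, Ifit3 was called lower (-0.38, adjusted p = 0.0479). Ifit3 and Ifit3b share most of their sequence, so their counts are uncertain, and Ifit1bl1 is annotated across parts of Ifit1 and Ifit3b. The ratio of Ifit1 to Ifit2 was 3.61, 2.94 and 3.17 in wild-type and 1.74, 1.47 and 1.78 in knock-out cells.

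Promoter sequence was searched for the interferon-stimulated response element. Ifit3 and Ifit3b, which were not called, are printed beside Ifit1 because they carry the same element letters but had values different from that of Ifit1. From RefSeq (GRCm38.p6), windows from 250 bases before to 50 bases after a transcript start were found for 28 of the 40 members. The letters searched were the core of the interferon-stimulated response element, GAAA, any 2 bases, and GAAA again. Both strands were searched, so that a core on the other strand reads TTTC, any 2 bases, and TTTC. Capitals mark the cores, and overlapping cores run together. The stretches of the IFIT genes come first, with the bases around their cores and before the start.
Ifit1: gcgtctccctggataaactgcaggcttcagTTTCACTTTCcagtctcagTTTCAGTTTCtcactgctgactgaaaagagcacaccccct
Ifit3: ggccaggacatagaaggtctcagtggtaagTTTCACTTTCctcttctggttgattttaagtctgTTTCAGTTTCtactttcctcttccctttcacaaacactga
Ifit3b: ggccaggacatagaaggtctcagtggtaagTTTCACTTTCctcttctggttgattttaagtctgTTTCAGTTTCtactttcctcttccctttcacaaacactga
These lie on the plus strand at chr19:34640755-34640843 for Ifit1, chr19:34583343-34583446 for Ifit3 and chr19:34607739-34607842 for Ifit3b. Each has a pair of cores with the same letters. The printed stretches of Ifit3 and Ifit3b were identical in 104 of 104 bases. The windows of Ifit2, the member of this cluster that was higher, did not hold the letters, and a link to its rise was not tested.

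Of the 28 members with a window, 12 held the core (42.9%), against 3.99% of 27025 genes and 3.44% of 32851 windows of the same length. With a C required after the core, it was 9 of 28 members, against 0.944% of genes. Cores began within 150 bases before the start in 9 of the 12 members. The median log2 fold change was -0.62 over the 12 members with a core and -0.60 over the 16 without. Ifi44, Oasl2, Oasl1 and Samd9l, which were lower by 1.21 to 2.33 on the log2 scale, had none in their windows. No match says only that these letters are not in the window. The next stretches show, beside Ifit1, the other 5 of the called members with the 3 lowest and 3 highest values among those that hold a core.
Rsad2: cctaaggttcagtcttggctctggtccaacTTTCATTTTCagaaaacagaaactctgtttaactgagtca
Oas1a: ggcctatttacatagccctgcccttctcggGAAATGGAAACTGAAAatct
Eif2ak2: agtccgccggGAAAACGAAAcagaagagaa
Bst2: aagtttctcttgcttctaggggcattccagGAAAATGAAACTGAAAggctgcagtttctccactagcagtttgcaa
Oas3: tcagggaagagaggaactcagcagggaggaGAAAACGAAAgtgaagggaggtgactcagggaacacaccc
All 5 lie on the minus strand, at chr12:26456533-26456602 for Rsad2, chr5:120907526-120907575 for Oas1a, chr17:78882535-78882564 for Eif2ak2, chr8:71537557-71537632 for Bst2 and chr5:120777695-120777764 for Oas3. Oas1a and Bst2 carry overlapping pairs, in Oas1a ending just before the start. The core of Eif2ak2 lies after the annotated start. The letters GAAAACGAAA stand in both Eif2ak2 and Oas3, whose log2 fold changes were -1.07 and -0.33.

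**Figure D3:**
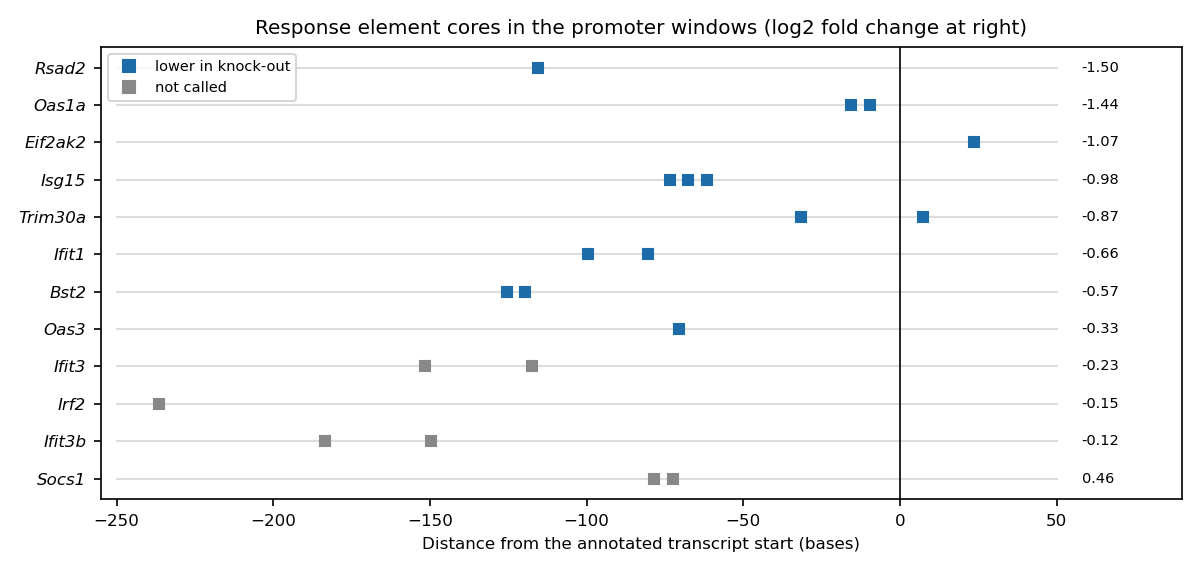
Position of each response element core, by its centre, relative to the annotated transcript start (0) for the 12 members that hold one. Grey lines span the windows and the log2 fold change of the gene is printed at the right. The cores of Trim30a share a line but come from separate windows, each with its own annotated start. The 8 genes that were lower and the 4 that were not called both carry cores, from 241 bases before the start (Irf2, first base) to 19 bases after it (Eif2ak2, first base).

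The oligoadenylate synthetase family makes a small messenger on sensing double-stranded RNA, and the 6 of its genes among the 40 members fell. Of 2 more genes of the family in the same cluster, Oas1g fell (-1.52, SE 0.0602) and Oas1c was not called, with 3.26 to 5.18 CPM in wild-type and 3.65 to 5.97 CPM in knock-out cells (0.23, SE 0.260, edgeR adjusted p = 0.445). Oas1a stood at 197, 194 and 201 CPM in wild-type and at 76.6, 72.1 and 68.8 CPM in knock-out cells, a 2.72-fold fall (-1.44, SE 0.0527, edgeR adjusted p = 1.71e-31). Oas1b, whose intact form protects mice against flaviviruses, stood at 27.3 to 31.0 and 14.0 to 17.8 CPM (-0.93, SE 0.118). Oas2 stood at 132, 121 and 121 CPM and at 69.1, 73.2 and 72.3 CPM (-0.81, SE 0.0581). In Oas3, which lies between Oas2 and Oas1b on chromosome 5, the fall was smaller, from 128, 133 and 122 CPM to 99.2, 106 and 101 CPM (-0.33, SE 0.0541, edgeR adjusted p = 4.74e-07). The ratio of Oas1a to Oas3 was 1.54, 1.45 and 1.65 in wild-type and 0.773, 0.684 and 0.683 in knock-out cells. Oasl1 and Oasl2, relatives of the synthetases, are neighbours in another part of chromosome 5. Oasl2 stood at 377, 378 and 347 CPM in wild-type and 150, 160 and 159 CPM in knock-out cells (-1.23, SE 0.0435), and Oasl1 at 172 to 182 and 73.5 to 80.1 CPM (-1.21, SE 0.0532). Their ratio was 2.20, 2.11 and 1.91 in wild-type and 2.05, 2.00 and 2.09 in knock-out cells, and the groups overlapped. Oas1a has close copies in the genome, so its count is uncertain.

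The Mx GTPases trap viral nucleocapsids, and common inbred mouse strains carry a broken Mx1. Mx2 stood at 28.4, 26.6 and 29.0 CPM in wild-type and at 10.4, 7.96 and 10.6 CPM in knock-out cells (-1.55, SE 0.133, edgeR adjusted p = 2.50e-15). Mx1 was lowest of the 40 members in the knock-out, with 36, 30 and 10 counts in wild-type and 6, 10 and 10 counts in knock-out cells. Wild-type replicate 3 had the same raw count as the knock-out libraries headed sg2 and sg3. Scaled, the groups did not overlap (2.83, 3.06 and 1.08 against 0.587, 0.865 and 0.961 CPM), and the fall was called with a wide error (-1.53, SE 0.446, edgeR adjusted p = 0.00225). The 9 other tested genes within 2 Mb of each Mx gene had a median of -0.52.

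PARP9 and DTX3L form a complex that joins ADP-ribosylation to ubiquitination, and PARP14 is a mono-ADP-ribosyltransferase. Their 3 genes are close together on chromosome 16 and all fell, by 0.45 (Parp9, SE 0.0698), 0.68 (Dtx3l, SE 0.0759) and 0.63 (Parp14, SE 0.0796) on the log2 scale. Parp9 ranged from 73.2 to 90.8 CPM in wild-type and from 58.4 to 61.3 CPM in knock-out cells, Dtx3l from 63.5 to 71.4 and from 40.1 to 42.7 CPM, and Parp14 from 57.6 to 66.3 and from 36.8 to 42.3 CPM. Parp9 and Dtx3l overlap by 558 bases. The ratio of Parp9 to Dtx3l overlapped between the genotypes.

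The 7 other antiviral effectors all fell. Rsad2 (viperin), which makes a chain-terminating nucleotide, stood at 57.0, 62.9 and 48.1 CPM in wild-type and 17.0, 21.6 and 20.7 CPM in knock-out cells (-1.50, SE 0.0996, edgeR adjusted p = 8.08e-20). Cmpk2, the neighbouring nucleotide kinase gene that supplies viperin's substrate, stood at 33.8, 28.0 and 39.0 CPM and at 23.0, 23.8 and 17.9 CPM, a smaller fall (-0.64, SE 0.114). Both genes had clearly lower values in the knock-out, and the ratio of Rsad2 to Cmpk2 was 1.69, 2.24 and 1.23 in wild-type and 0.740, 0.909 and 1.16 in knock-out cells. Samd9l, a restriction factor of poxviruses, fell from 215 ± 15.2 to 91.1 ± 3.64 CPM. Trim30a, a mouse TRIM protein, fell from 161 ± 9.88 to 87.8 ± 3.27 CPM, and Bst2 (tetherin), which holds budding virions at the cell surface, from 238 ± 9.05 to 160 ± 3.92 CPM. Bst2 lies on chromosome 8, and with the chromosome median removed its value went from -0.57 to -0.21 and was still called (edgeR adjusted p = 3.61e-05). Xaf1, a pro-apoptotic gene, fell from 71.1 ± 2.05 to 48.0 ± 3.61 CPM. Isg20, an exonuclease, had the smallest fall of the called members, from 30.5, 29.7 and 27.1 CPM to 24.9, 20.9 and 25.3 CPM (-0.30, SE 0.107, edgeR adjusted p = 0.0116). That call was lost without wild-type replicate 1 (adjusted p = 0.0549), without the library headed sg2 (adjusted p = 0.0884), with scaling by upper quartile (-0.14) or by library size alone (-0.18).

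The other interferon-induced genes held both the largest fall and 2 of the rises. Ifi44, which restrains viral replication and cell growth, stood at 517, 511 and 458 CPM in wild-type and at 94.5, 103 and 98.6 CPM in knock-out cells, a 5.02-fold fall (-2.33, SE 0.0465, edgeR adjusted p = 4.14e-44). The median of the 11 other tested genes within 2 Mb of it was -0.34. Rtp4, a chaperone of membrane receptors, fell from 102 ± 1.06 to 50.4 ± 3.36 CPM, and Ifi35 from 45.5 ± 1.71 to 31.1 ± 2.29 CPM. Masp1 is annotated across 1022 bases of Rtp4 and had 0.55. Ifi27l2a stood at 58.9, 47.5 and 49.3 CPM in wild-type and 23.1, 19.0 and 20.5 CPM in knock-out cells (-1.32, SE 0.0979), whereas Ifi27, annotated within its bounds on chromosome 12, stood at 45.8, 41.6 and 44.2 CPM and 80.1, 83.1 and 81.8 CPM (0.89, SE 0.0703, edgeR adjusted p = 7.64e-17). These are both members of the small ISG12 family, and their ratio went from 1.28, 1.14 and 1.11 to 0.289, 0.229 and 0.250. Because their annotations overlap by 6057 bases, reads in shared exons could be dropped or assigned to either. Lgals3bp, a secreted galectin-binding glycoprotein, rose slightly, from 190, 182 and 175 to 204, 212 and 208 CPM (0.19, SE 0.0448, edgeR adjusted p = 0.000192), while the 53 other tested genes within 2 Mb had a median of 0.30.

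**Figure D4:**
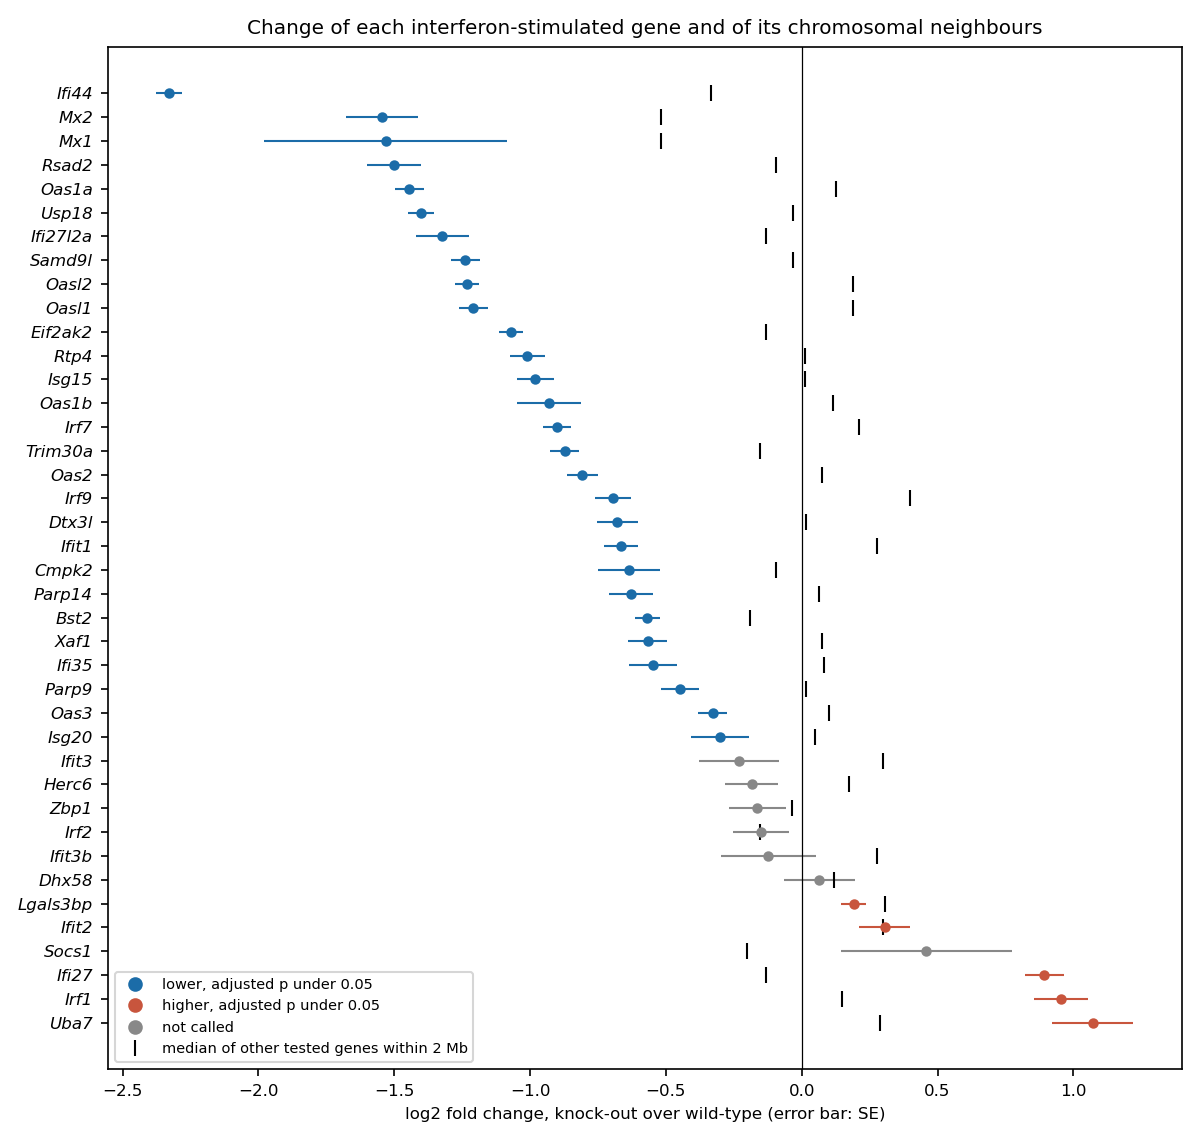
Log2 fold change (knock-out over wild-type, error bars SE, 3 libraries per genotype) of the 40 members in order, coloured by the edgeR call, with the median of the other tested genes within 2 Mb of each as a black tick. The 28 members that fell lie left of their own neighbours' median (a description, since their values chose them). That median ranged from -0.52 to 0.40 over the 40 members. Irf2, Ifit2 and Dhx58 lie closest to theirs.

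The members lie on 14 chromosomes, and the median of their neighbours' medians was 0.06. The median difference between a member and its neighbours was -0.69. Across the 12 ratios between pairs of members, 10 did not overlap between the genotypes. No such share was taken for pairs of other genes, and 68.7% of single genes tested did not overlap. With 3 libraries against 3, a two-sided exact permutation test cannot give a p below 0.10, and those 10 ratios reached it (0.12 adjusted over the 12 pairs). The pairs were chosen after the values were seen, so these p-values are descriptions and lend no support.

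A further list of interferon-stimulated genes holds none of the 40 and was also chosen with earlier results of these data known. Of its 38 tested genes, 22 were lower and 6 higher, with a median of -0.41. Among all genes tested, 33.2% were lower and 33.1% higher. Helz2, a nuclear helicase and coactivator, fell from 235 ± 10.7 to 73.1 ± 2.70 CPM. The antiviral zinc finger gene Zc3hav1 (ZAP) fell from 422 ± 13.0 to 192 ± 2.82 CPM, and Apol9b, which has a close copy in Apol9a, from 208 ± 2.95 to 80.0 ± 1.07 CPM. Ifitm1, of a family that blocks virus entry at membranes, rose from 9.51 ± 1.87 to 52.5 ± 2.86 CPM (2.45, SE 0.114). Pml, the organiser of nuclear bodies, rose by 0.53, and Ly6e by 0.19, a call that was lost with chromosome medians removed (0.06, edgeR adjusted p = 0.0996). Over the 3 pathway lists together, 33 of 62 tested genes fell and 13 rose, where 66.2% of all genes tested were called in either direction.

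The replicate spread of the members was low. The median coefficient of variation within a genotype was 6.15% in wild-type and 6.72% in knock-out cells, beside 7.86% and 6.90% over all genes tested. Mx1 and Socs1, the members with the lowest counts, had the widest relative spread. Mitochondrially encoded counts made up 3.20% to 3.44% of wild-type and 3.44% to 3.81% of knock-out libraries, and ribosomal protein genes 5.90% to 6.17% and 5.58% to 5.79%. The part of these shares in the differences was not tested.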

How the data were processed

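Read counts per Ensembl gene were used as the authors deposited them, for 6 polyA libraries; the CUT&Tag and single-cell samples are not analysed here. The submitters' processing notes name fastp, STAR, HTSeq and build mm10, with no role or version; which gene annotation was counted, and whether by strand, is not given in the sources used here. Wild-type columns were matched to samples by number. Knock-out columns, headed sg1 to sg3, were matched to the group only. Symbols were found for 17650 of 17718 genes and RefSeq positions for 15484.

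Genes passed filterByExpr of edgeR 4.0.16 (minimum count 10, minimum total 15), which left 13013. Counts were TMM-scaled and tested with the robust quasi-likelihood F test (R 4.3.3), adjusted by Benjamini-Hochberg over all genes tested at 0.05. SE was derived from F. One count is 0.0786 to 0.108 CPM. Alternatives used RLE, upper-quartile and library-size scaling, no filter and a filter of 5 CPM in 3 libraries, DESeq2 1.42.0, limma 3.58.1 voom, glmTreat at 1.5-fold, chromosome medians removed and each library left out. The code of the fit was run on simulated counts, with the same dispersion for every gene and few genes changed. That run checks the code and does not measure the error rate in these data. The members, lists and named genes were chosen with earlier results of these data known. All members are named, with Kmt2c, the receptor chains, JAK1, TYK2, STAT2 and up to 3 called genes per direction of each pathway list, by p. Other names were chosen after values were seen. Values of 2 genes that count in the pathway lists are not reported here.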

Additional observations from a re-analysis of the deposited data

How the results depend on the processing

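Under 15 alternatives, 31 of the 33 called members kept their call and direction wherever they were tested, the test against a 1.5-fold change apart; the exceptions were Isg20 and Ifit2. Mx1, called lower, and Socs1 did not pass the stricter filter and have no value there. Without 1 library at a time, 27 to 29 members fell, 4 to 5 rose, and the median of the members was -0.69 to -0.64. Against a 1.5-fold change, the number of all genes called was 2602 (8621 in the main test) by glmTreat. Of the 13013 genes tested, 1154 were then lower and 1448 higher. Of the 40 members, 17 were lower and 3 higher, and of the 62 tested pathway genes, 18 were lower and 3 higher. With upper-quartile scaling or library size alone, the median of all genes went from 0.02 to 0.17 and 0.14, and the share of calls that were higher from 49.9% to 63.7% and 60.5%. The median of the members was then -0.49 and -0.53, which is -0.67 relative to that of all genes in each, as with TMM. Members called lower and higher were 27 and 5 under both, and pathway genes called higher were 21 and 20 instead of 13. The median of the members was -0.62 with the stricter filter, where 38 were tested, and -0.63 with chromosome medians removed. Uncalled values changed sign for Ifit3b (0.035 with upper-quartile scaling, 0.036 with chromosome medians removed), Irf2 (0.0077 and 0.20), Jak1 (0.089 with upper-quartile scaling, 0.053 with library size alone) and Dhx58 (-0.10 to 0.16 without 1 library at a time). No paired analysis was possible because the knock-out columns carry no replicate number that the labels tie to a sample. Mx1 and Socs1 rest on 50 counts or fewer per library, so small differences in them could not be detected at this depth.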
